A study of Mus musculus with 12 samples.

Results

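This account covers 10 genes of the machinery that drives RNA polymerase II (Pol II) along genes, measured by RNA-Seq in hernia-associated fibroblasts (HAFs). They were Aff1, Aff3, Aff4, Ell, Ell2, Mllt1, Cdk9, Ccnt1, Ccnt2 and Ccnl1, chosen by name, and all 10 were among the 13233 genes with deposited values. Aff1, Aff3 and Ccnl1 entered the choice because of their values between E2 and E2 plus fulvestrant, so that comparison is described here for all 10 genes without a test. Comparisons of vehicle with either of these groups share samples with it, so for Aff1, Aff3 and Ccnl1 they are descriptions too. Fulvestrant against vehicle compares none of those samples, but its p-values use a spread pooled over all 12 samples, these included. HAFs were primary fibroblasts cultured from the lower abdominal muscle (LAM) of male Aromhum mice on the FVB/N background, which carry the human aromatase gene with its own promoters. All cells therefore came from Aromhum mice, including the vehicle controls, and no cells of wild-type mice were compared. After serum starvation, the cells received 10 nM E2 (estradiol) or its ethanol vehicle, with or without 100 nM fulvestrant, for 48 h. The 12 samples formed 4 groups of 3, named vehicle, E2, E2 plus fulvestrant and fulvestrant. Fulvestrant is an antagonist of the estrogen receptor ESR1 that also lowers the receptor protein. The labels number the replicates 1 to 3 in each group but do not say whether they came from separate mice, so the p-values below measure the spread between these samples.

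Many genes are held by Pol II that pauses shortly after it starts, and release needs the kinase P-TEFb, a pair of CDK9 and a cyclin T (CCNT1 or CCNT2). P-TEFb is brought to genes by the super elongation complex, in which an AFF protein is the scaffold, ELL or ELL2 speeds Pol II along the template, and MLLT1 (ENL) reads acetylated histones through its YEATS domain. Cyclin L1, the product of Ccnl1, is a partner of the CDK11 kinases and is tied to pre-mRNA splicing. The complex is known for the fast induction of genes such as the FOS, JUN and EGR families after a stimulus, and AFF1, AFF4, ELL and MLLT1 are also fusion partners of MLL in leukemia.

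The promoters of Aff1, Aff3 and Ccnl1 are shown because their values between E2 and E2 plus fulvestrant entered the choice of genes, and that of Ell2, picked afterwards, because it shares a motif with Ccnl1. The windows run from 250 bases before to 50 bases after a RefSeq start site on GRCm38.p6, 5′ to 3′ on the strand of the gene, and all 10 genes had at least 1 (11 windows in all). Capitals mark TGACGTCA, the palindromic cAMP response element.
Ccnl1 (chr3:65958200-65958499, minus strand): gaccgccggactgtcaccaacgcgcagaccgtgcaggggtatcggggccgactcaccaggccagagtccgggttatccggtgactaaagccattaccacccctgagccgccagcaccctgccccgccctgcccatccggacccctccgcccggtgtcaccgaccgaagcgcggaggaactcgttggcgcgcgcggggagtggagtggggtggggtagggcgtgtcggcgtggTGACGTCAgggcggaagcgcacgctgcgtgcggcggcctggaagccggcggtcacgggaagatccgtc
Ell2 (chr13:75707234-75707533, plus strand): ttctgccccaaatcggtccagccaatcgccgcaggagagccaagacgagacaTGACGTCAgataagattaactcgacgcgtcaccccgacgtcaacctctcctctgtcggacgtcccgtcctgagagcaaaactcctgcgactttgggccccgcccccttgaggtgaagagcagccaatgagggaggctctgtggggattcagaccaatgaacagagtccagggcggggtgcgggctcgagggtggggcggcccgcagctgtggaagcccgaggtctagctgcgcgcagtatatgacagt
Aff1, upstream start (chr5:103753912-103754211, plus strand): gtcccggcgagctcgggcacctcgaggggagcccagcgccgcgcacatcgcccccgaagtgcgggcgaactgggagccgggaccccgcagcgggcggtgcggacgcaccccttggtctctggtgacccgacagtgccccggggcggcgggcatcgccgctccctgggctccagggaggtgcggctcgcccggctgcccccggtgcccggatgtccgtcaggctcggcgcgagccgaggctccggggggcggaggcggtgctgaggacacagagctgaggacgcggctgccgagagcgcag
Aff1, downstream start (chr5:103754323-103754622, plus strand): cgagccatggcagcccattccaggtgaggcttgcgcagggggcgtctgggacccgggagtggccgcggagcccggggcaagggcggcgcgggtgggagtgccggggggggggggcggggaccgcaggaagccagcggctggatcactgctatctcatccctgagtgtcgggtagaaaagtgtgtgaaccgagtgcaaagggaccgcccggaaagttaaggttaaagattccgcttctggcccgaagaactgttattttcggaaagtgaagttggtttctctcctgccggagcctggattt
Aff3 (chr1:38627195-38627494, minus strand): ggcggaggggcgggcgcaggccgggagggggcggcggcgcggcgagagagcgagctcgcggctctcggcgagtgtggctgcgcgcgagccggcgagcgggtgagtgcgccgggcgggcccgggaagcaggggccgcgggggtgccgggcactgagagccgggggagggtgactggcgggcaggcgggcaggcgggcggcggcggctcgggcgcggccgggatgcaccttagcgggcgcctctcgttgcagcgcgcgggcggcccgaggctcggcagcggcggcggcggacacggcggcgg

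None of the 11 windows held the palindromic estrogen response element (GGTCANNNTGACC), which 0.07% of all 32851 promoter windows held, or its single arm AGGTCA, which 16.3% held. Nor did any hold the palindromic glucocorticoid response element (GNACANNNTGTNC, in 0.475% of all windows) or the TATA box (TATAAA, 13.6%). Both strands were searched, and an estrogen response element preceded by A also counts as a match of the single arm. The cAMP response element, a motif added after these sequences had been seen, was in 1.79% of all windows. In the Ccnl1 window it began 18 bases before the start site, and in the Ell2 window it began 198 bases before. The windows were rich in G and C, from 61.3% for Ell2 to 83.3% for Aff3, against a median of 52.7% over all windows. These matches describe the letters of the windows and say nothing about binding. Some annotated genes begin further upstream than their windows, at 103692374 for Aff1 and 38664955 for Aff3, and those starts were not searched. The labels upstream and downstream order the Aff1 windows only.

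The libraries held 18827792 to 44040507 reads on the listed genes (median 31703872). The 4 libraries numbered replicate 1 stood apart from the other 8: Atf3, a stress-induced transcription factor, had 13.2 to 57.1 normalized counts in them and 2418 to 4716 in replicates 2 and 3. The replicate number was therefore kept as a block in the fit, and for some genes values without replicate 1 are given below. Pgr, the progesterone receptor gene and a classic ESR1 target, rose by 1.88 on the log2 scale with E2 (limma adjusted p = 0.0343) and had a log2 fold change of -1.82 with fulvestrant alone (adjusted p = 0.00148). Of 10 fibroblast markers all were listed, with a summed level of 613370 to 727134 normalized counts per sample with vehicle, 677785 to 782245 with E2, 571092 to 694656 with E2 plus fulvestrant and 535328 to 703808 with fulvestrant. The sum hides single markers: with fulvestrant alone 4 of the 10 were called lower and 0 higher, namely Lum (log2 fold change -1.18), Esr1 (-1.46), Col3a1 (-0.49) and Col1a1 (-0.43), while Fn1 and Vim had uncalled values of 0.29 each. No myogenic marker of 7 and no adipocyte marker of 3 was listed, which can mean absence or too few reads. Endothelial markers were represented by Tek alone (58.4 to 277) and immune markers by Cd68 alone (28.2 to 112), and 3 of 4 mural markers summed to 245 to 408 with vehicle and 183 to 251 with fulvestrant. Of these, Notch3 was called lower with fulvestrant (-0.85), and Myh11 had an uncalled 1.25 at 8.70 to 68.4 normalized counts in these groups. Their part in the results was not tested. In a bulk culture, fewer cells of a kind and less RNA per cell cannot be told apart.

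With fulvestrant alone, Aff1 and Ell rose among the 10 genes, and none fell. A gene was called in limma at a Benjamini-Hochberg adjusted p under 0.05 over all 13233 genes and a fold change over 1.2. By that rule 6.76% of all genes were higher with fulvestrant than with vehicle and 5.69% were lower (12.5% in all). The median log2 fold change of the 10 genes was 0.10, against 0.01 over all genes. With E2 plus fulvestrant, compared with the same vehicle samples, Ell was called higher and none of the 10 genes lower. By the same rule 7.04% of all genes were higher and 5.66% lower (12.7% in all). Aff1 passed it too, but these samples entered its choice, so that is a description. Scaling the values to CPM (counts per library total) moved the split of all genes to 702 higher and 958 lower with fulvestrant, from 895 and 753, and to 685 and 951 with E2 plus fulvestrant, from 932 and 749. Without the replicate block, limma called none of the 10 genes in either comparison, and over all genes it then called 40 higher and 32 lower with fulvestrant. With E2 against vehicle, limma called none of the 10 genes, where 0.0756% of all genes were called. Of the genes whose choice did not use the E2 samples, Ccnt2 alone had an unadjusted p under 0.05, as did 10.1% of all genes. The E2 samples entered the choice of Aff1, Aff3 and Ccnl1, so no p is counted for them. The estimates of Ccnt2 and Ccnl1 moved by over 1.5 times without E2 replicate 2. Adding E2 to fulvestrant gave no call among the 10 genes by limma or among all genes (0%), and 0 of the 10 had an unadjusted p under 0.05. No gene of the 10 had its 3 values apart from the other 3 in that comparison, as 2.42% of all genes did. For the interaction of E2 and fulvestrant limma also called no gene (0%), with 3.79% of all genes at an unadjusted p under 0.05. It contains the values of E2 against E2 plus fulvestrant, so no p of the 10 genes is given for it.

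The comparison of E2 with E2 plus fulvestrant entered the choice of the genes and is given as a description. Over all genes 4.62% were called higher with E2 and 4.97% lower (9.6% in all). Of the 10 genes 9 had estimates below 0, with a median log2 difference of -0.13 against -0.01 over all genes. The 3 E2 values of Aff1, Ell and Ccnl1 all lay below the 3 with E2 plus fulvestrant, a separation seen in 1 direction or the other for 12.5% of all genes.

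**Figure D1:**
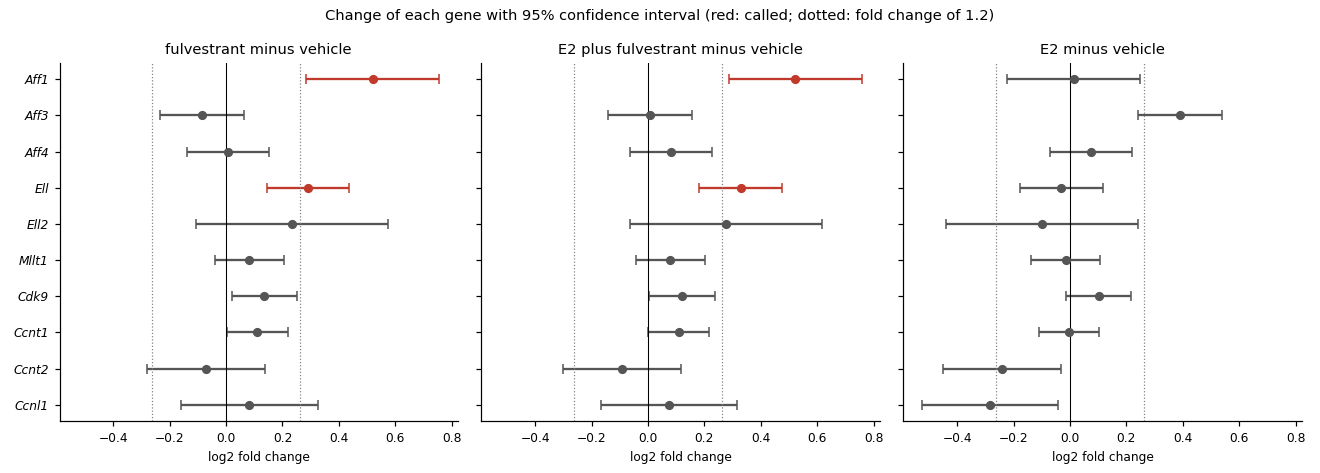
Log2 fold change (x axis) of each of the 10 genes (y axis) for 3 comparisons that share the vehicle samples, with the limma 95% confidence interval as bars, red for called genes and dotted lines at a fold change of 1.2. Aff1 and Ell are called in both comparisons with fulvestrant (for Aff1, the E2 plus fulvestrant samples entered its choice), and Aff3 has the highest estimate with E2, at 0.39, without a call.

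Among the AFF scaffolds, Aff1 (ENSMUSG00000029313, chromosome 5 of GRCm38, 103692374 to 103855322, plus strand) rose with fulvestrant alone. Its normalized counts were 4022, 5469 and 6128 with vehicle (replicates 1, 2 and 3). They were 3867, 6134 and 5836 with E2. They were 6704, 7768 and 7678 with E2 plus fulvestrant and 7111, 7682 and 7275 with fulvestrant. Every sample with fulvestrant lay above every sample without it, which is a description, since samples that entered the choice of Aff1 are among them. How many of all genes were split this way was not counted. Replicate 1 was the lowest within vehicle, E2, E2 plus fulvestrant and fulvestrant alike. Against vehicle, Aff1 was higher by 0.52 on the log2 scale with fulvestrant (standard error 0.11, 1.43-fold, limma adjusted p = 0.00837). With E2 plus fulvestrant, whose samples entered the choice of Aff1, the difference was also 0.52, given as a description. It was higher in 3 of 3 pairs of the same replicate number in both comparisons, and 45.1% and 53% of all genes went 1 way in all 3 pairs. The size differed by replicate number, with 0.82, 0.49 and 0.25 on the log2 scale in pairs 1, 2 and 3 for fulvestrant alone. Without replicate 1 the log2 fold change with fulvestrant was 0.37 and still called, whereas without replicate 2 it was 0.53 and no longer called (adjusted p = 0.0888). Without the block its adjusted p was 0.449.

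The order of the Aff1 levels thus had fulvestrant and E2 plus fulvestrant at the top, with a difference of 0.00 between them on the log2 scale (95% interval -0.23 to 0.24). Vehicle and E2 were at the bottom, with a difference of 0.01 (-0.22 to 0.25). The E2 samples differed from E2 plus fulvestrant by -0.51 on the log2 scale (standard error 0.11), or -0.37 without replicate 1.

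Aff3 (ENSMUSG00000037138, chromosome 1, 38177326 to 38664955, minus strand), a paralog of Aff1 also found in AFF scaffolds, had its highest level with E2. Its normalized counts were 3152, 1508 and 1713 with vehicle and 4430, 2085 and 1987 with E2. With E2 plus fulvestrant they were 3051, 1634 and 1652, and with fulvestrant they were 3003, 1581 and 1437. The groups overlapped throughout, since replicate 1 was well above replicates 2 and 3 in each group, but within each replicate number the E2 sample was the highest of 4. Against vehicle, Aff3 differed by 0.39 on the log2 scale with E2 (SE 0.07, 1.31-fold). It was higher in 3 of 3 pairs, and 39% of all genes went 1 way in all 3. The E2 samples entered the choice of Aff3, so this difference is a description, and limma did not call it in the main setting or in any of 24 alternatives. With fulvestrant alone the log2 fold change was -0.08 (adjusted p = 0.44), and with E2 plus fulvestrant it was 0.01. Compared with E2 plus fulvestrant, E2 was higher by 0.39 (standard error 0.07). The interaction of E2 and fulvestrant was 0.30 for Aff3, also a description, and a difference between its response to E2 with and without fulvestrant was not shown.

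Aff4 (chromosome 11, 53350833 to 53421830, plus strand), the scaffold best known from the super elongation complex, stayed between 9727 and 11703 normalized counts in all 12 samples. Its log2 fold changes against vehicle were 0.01 with fulvestrant (95% interval -0.14 to 0.15), 0.08 with E2 plus fulvestrant and 0.07 with E2, none called. Set against each other per kilobase of exon, the scaffolds changed rank with the replicate number. The ratio of Aff1 to Aff3 was 0.898, 2.55 and 2.52 with vehicle and 0.614, 2.07 and 2.07 with E2. It was 1.55, 3.34 and 3.27 with E2 plus fulvestrant and 1.67, 3.42 and 3.56 with fulvestrant. Within each replicate number it was lowest with E2 and highest with fulvestrant. Aff3 exceeded Aff1 per kilobase in only 2 of 12 samples, vehicle replicate 1 and E2 replicate 1. This ratio combines the values that entered the choice of both genes and is a description.

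**Figure D2:**
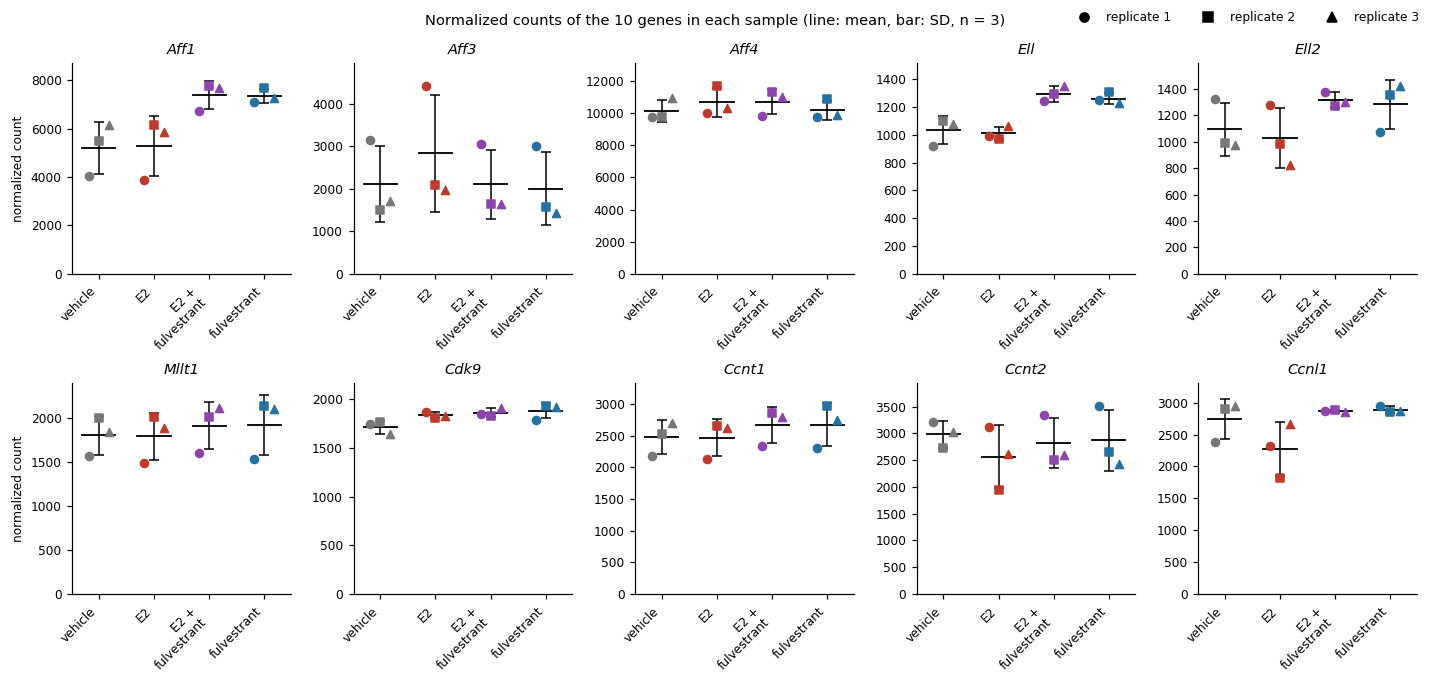
Normalized counts (y axis, from 0) of the 10 genes in the 12 samples by group (x axis), with the marker shape for the replicate number, a line for the mean and a bar for the SD (n = 3). Aff1 and Ell lie higher in all samples with fulvestrant than in all samples without it (how many of all genes do so was not counted). Replicate 1 lies apart from replicates 2 and 3 for Aff3, Mllt1, Ccnt1 and Ccnt2.

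Of the ELL proteins and the YEATS partner, Ell (ENSMUSG00000070002, chromosome 8, 70539457 to 70592858, plus strand) rose with fulvestrant. Its normalized counts were 919, 1099 and 1079 with vehicle and 991, 969 and 1065 with E2. They were 1240, 1290 and 1352 with E2 plus fulvestrant and 1248, 1304 and 1226 with fulvestrant. The 6 samples with fulvestrant were all above the 6 without it. How many of all genes were split this way was not counted. Compared with vehicle, Ell was higher by 0.29 on the log2 scale with fulvestrant (1.22-fold, standard error 0.07, limma adjusted p = 0.0144, higher in 3 of 3 pairs). It was 0.33 with E2 plus fulvestrant (adjusted p = 0.00739, 3 of 3 pairs). The first of these lies close to the fold limit and lost its call under 9 of 24 alternatives, with a range of 0.22 to 0.35. Among them were leaving out any replicate number, leaving out vehicle replicate 1, fulvestrant replicate 1 or fulvestrant replicate 2, and the fit without the block (adjusted p = 0.244). The limma fit of fulvestrant and vehicle alone, with the block, also lost it (adjusted p = 0.1055). The second lost its call without the block and without replicate 3, and without replicate 1 it was 0.28 (adjusted p = 0.029). E2 alone left a log2 difference of -0.03 (95% interval -0.18 to 0.12), and between E2 and E2 plus fulvestrant the difference was -0.36.

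Ell2 (chromosome 13, 75706757 to 75772364, plus strand), its paralog, was less regular. Its normalized counts were 1324, 987 and 972 with vehicle and 1273, 984 and 825 with E2. They were 1378, 1267 and 1295 with E2 plus fulvestrant and 1073, 1352 and 1422 with fulvestrant. The groups overlapped because replicate 1 was high with vehicle and low with fulvestrant. The mean difference between fulvestrant and vehicle was 0.23 on the log2 scale (standard error 0.15, adjusted p = 0.342), made of -0.30, 0.45 and 0.55 in pairs 1, 2 and 3. Without replicate 1 it was 0.50 and was called (adjusted p = 0.00242), and without fulvestrant replicate 1 alone it was 0.47 (adjusted p = 0.0112). With E2 plus fulvestrant it was 0.28 (adjusted p = 0.253), and 0.39 without replicate 1 (adjusted p = 0.0118). The E2 samples differed from E2 plus fulvestrant by -0.38, and by -0.24 without replicate 3 or -0.23 without E2 replicate 3. Exons of Gm23127 overlap 1.32% of the Ell2 exon sequence.

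Mllt1 (chromosome 17, 56892611 to 56935415, minus strand) ranged from 1488 to 2137 normalized counts, with replicate 1 the lowest in each group. Its log2 fold change was 0.08 with fulvestrant (adjusted p = 0.358), 0.08 with E2 plus fulvestrant and -0.01 with E2.

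Among the P-TEFb genes, Cdk9 (chromosome 2, 32705784 to 32713076, minus strand), the kinase, had 1741, 1762 and 1639 normalized counts with vehicle. It had 1873, 1810 and 1830 with E2, 1845, 1832 and 1912 with E2 plus fulvestrant, and 1792, 1933 and 1925 with fulvestrant. All 9 treated samples lay above all 3 vehicle samples, though by little. Such separation of 3 values from 3 was seen for 11.1% of all genes with fulvestrant, 13.9% with E2 plus fulvestrant and 5.19% with E2, and among the 10 genes for 3, 3 and 1. Cdk9 differed from vehicle by 0.14 on the log2 scale with fulvestrant (standard error 0.05, adjusted p = 0.107), 0.12 with E2 plus fulvestrant (adjusted p = 0.146) and 0.10 with E2 (adjusted p = 0.534), none called. The vehicle samples are shared by these comparisons. Mir2861 and Mir3960 overlap 3.36% of its exons.

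Ccnt1 (chromosome 15, 98538689 to 98570923, minus strand), which encodes the main cyclin of P-TEFb, had 2184 to 2709 normalized counts with vehicle and 2307 to 2974 with fulvestrant. In each of the 3 pairs it was higher with fulvestrant, a pattern no rarer than the 45.1% given above. Its difference was 0.11 on the log2 scale (standard error 0.05, adjusted p = 0.149) with fulvestrant and 0.11 (adjusted p = 0.156) with E2 plus fulvestrant. Ccnt2 (chromosome 1, 127774164 to 127808061, plus strand), the alternative cyclin, had log2 fold changes of -0.07 and -0.09 in these comparisons. With E2 it was -0.24 (unadjusted p = 0.0282, adjusted p = 0.468), and -0.12 without E2 replicate 2. That library gave 1952 normalized counts of Ccnt2, below 2433 to 3515 in the other 11. It had 20665975 reads, the fewest of the E2 group, while fulvestrant replicate 3 had 18827792. Whether depth played a part was not tested.

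Ccnl1 (ENSMUSG00000027829, chromosome 3, 65946151 to 65958249, minus strand), the cyclin L gene, had 2383, 2894 and 2943 normalized counts with vehicle and 2314, 1821 and 2665 with E2. With E2 plus fulvestrant it had 2872, 2891 and 2850, and with fulvestrant 2951, 2854 and 2866. The 6 samples with fulvestrant lay close together, and the lowest value was E2 replicate 2. Fulvestrant and vehicle differed by 0.08 on the log2 scale (95% interval -0.16 to 0.32, adjusted p = 0.657). With E2, whose samples entered the choice of Ccnl1, it was -0.28, and -0.12 without E2 replicate 2. From E2 plus fulvestrant, E2 differed by -0.36 (standard error 0.11), lower in 3 of 3 pairs as 50% of all genes were 1 way or the other, and -0.20 without E2 replicate 2. The value that entered the choice of this gene thus moved by over 1.5 times when that library was left out.

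Per kilobase of exon, the mean level over the 12 samples was highest for Aff4, at 775 ± 52.2 normalized counts per kilobase (SD, n = 12, all groups together). Aff1 followed at 667 ± 142, though it exceeded Aff4 in all 3 fulvestrant samples (means 778 and 757). Its mean was below that of Aff4 with vehicle (550 and 753), E2 (558 and 794) and E2 plus fulvestrant (781 and 797). Next came Mllt1 at 474 ± 62.5, Ccnl1 at 449 ± 57.8, Cdk9 at 396 ± 18.4 and Ell at 369 ± 46.9. Aff3 had 341 ± 140, Ccnt1 281 ± 29.8, Ccnt2 227 ± 36.0 and Ell2 120 ± 20.2. Neighbours in this order lay within the larger of their SDs, except Aff1 and Mllt1, Ccnt1 and Ccnt2, and Ccnt2 and Ell2. The highest Ell2 value, 145, was below the lowest of Ccnt2, 158. The order also differed by group. With E2, Aff3 (mean 426) was above Cdk9 (399), Ccnl1 (378) and Ell (324), and with E2 plus fulvestrant Ell (416) was above Cdk9 (404). Among all listed genes Aff4 stood at the 86.6th percentile per kilobase and Ell2 at the 35.9th.

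The 10 genes differed in how much of their variation followed treatment. Treatment group held 83.7% of the sum of squares of log2(value + 1) for Ell, 66.2% for Cdk9, 61.5% for Aff1 and 55.7% for Ccnl1, against a median of 17.9% over all genes. For Aff1 and Ccnl1 this share contains the values by which they were chosen, and the E2 values of Ccnl1 depend on E2 replicate 2. The replicate number held 89.4% for Mllt1, 85.3% for Aff3, 81.5% for Ccnt1 and 65.2% for Ccnt2, against a median of 57.7% over all genes. Replicate 1 exceeded the mean of replicates 2 and 3 by 1.00 on the log2 scale for Aff3 and by 0.37 for Ccnt2. It was below by a difference of -0.38 for Mllt1, -0.36 for Aff1 and -0.29 for Ccnt1. The scaffolds Aff1 and Aff3 thus went in opposite directions between replicate numbers. They also did so between E2 and E2 plus fulvestrant, but that comparison entered the choice of both, so this is a description.

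**Figure D3:**
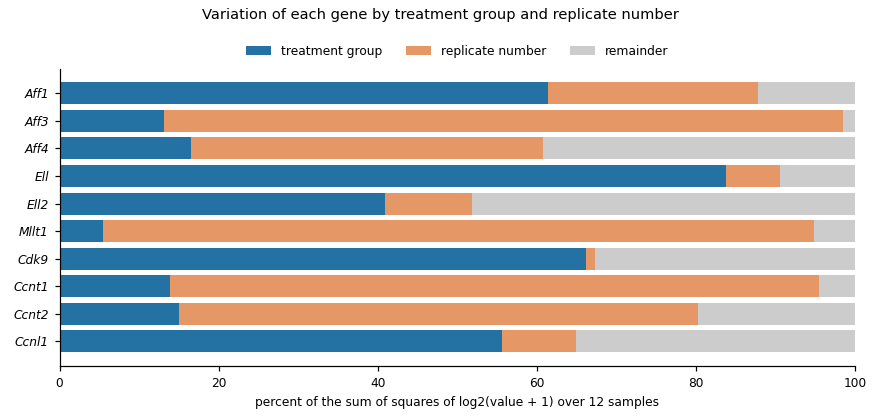
Share of the sum of squares of log2(value + 1) over 12 samples (x axis, percent) held by treatment group, replicate number and the remainder for each of the 10 genes (y axis). Treatment holds the largest share for Ell, at 83.7%, and replicate number for Mllt1, at 89.4%.

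The genes whose profile over the 12 samples was most like that of Aff1, after removing the mean of each replicate number, were Pcdh9, Trim47 and Kdm7a, with root mean square differences of 0.04, 0.05 and 0.06 on the log2 scale. For Aff3 they were Atp8b1, Plat and 3110040N11Rik, at 0.08, 0.09 and 0.09. For Ccnl1 they were Fnbp4, Srsf2 and Luc7l3, at 0.05, 0.06 and 0.06. The last group has its lowest value in E2 replicate 2 in each case, as Ccnl1 does. All these genes were picked by closeness over the same samples, so a shared pattern follows from the choice. Srsf2 and Luc7l3 encode splicing factors.

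**Figure D4:**
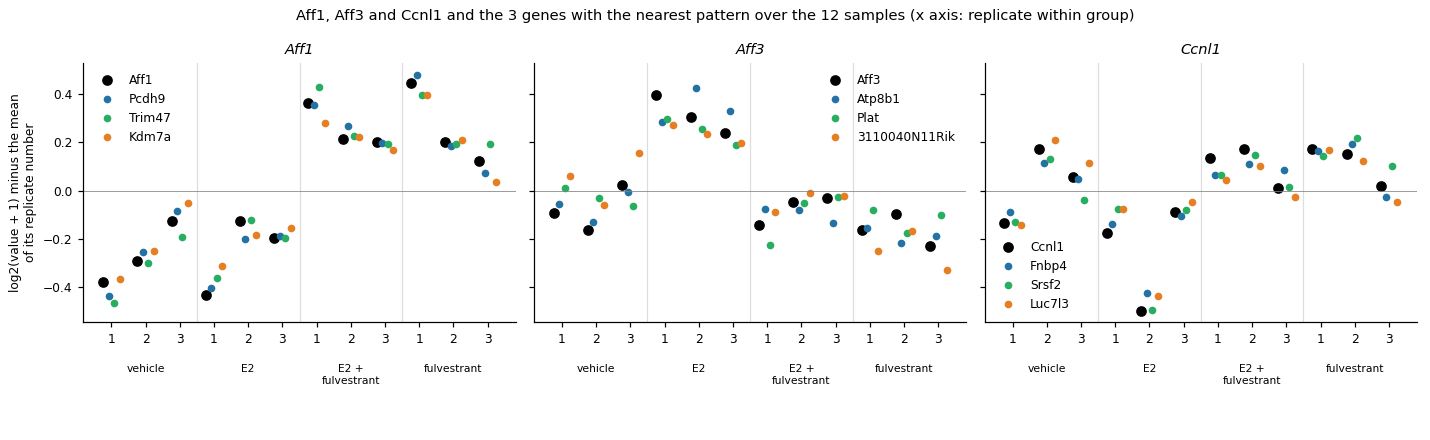
Log2(value + 1) minus the mean of its replicate number (y axis) in the 12 samples (x axis, replicates 1 to 3 within each group) for Aff1, Aff3 and Ccnl1 in black and the 3 genes nearest to each in color. Aff1 and its neighbours are above 0 in all samples with fulvestrant and below 0 in the others, and Ccnl1 and its neighbours dip in E2 replicate 2. The neighbours were picked by closeness over these samples, so the likeness follows from the choice.

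Of 61 further genes in the lists of elongation factors, cyclin L partners and splicing kinases, and chromatin partners, 1 rose and 2 fell with fulvestrant alone. Over all genes 6.76% rose and 5.69% fell, and the difference in share was not tested. Eaf1, which encodes a cofactor of the ELL proteins, had 1238, 2342 and 2314 normalized counts with vehicle and 1361, 3553 and 3451 with fulvestrant. It was higher by 0.44 on the log2 scale (standard error 0.10, limma adjusted p = 0.0137), and 0.59 without replicate 1, but 8 of 24 alternatives lost the call. Zc3h8, a subunit of the little elongation complex that serves small nuclear RNA genes, had 318, 260 and 239 with vehicle and 166, 141 and 186 with fulvestrant, a log2 fold change of -0.72 (adjusted p = 0.00339). Tcea3, a TFIIS family gene, had 1756, 1435 and 1411 with vehicle and 1435, 1007 and 874 with fulvestrant, a log2 fold change of -0.50 (adjusted p = 0.00276). Between E2 and E2 plus fulvestrant Eaf1 differed by -0.36 (adjusted p = 0.0401, lost under 12 of 24 alternatives, among them leaving out any E2 plus fulvestrant library) and Tcea3 by 0.43 (adjusted p = 0.00749). All 3 genes lost their calls without the block and without replicate 2.

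Apart from the other elongation factors, which hold Tcea3, and the super elongation complex list, which holds Eaf1 and Zc3h8, the elongation lists had no call with fulvestrant alone. These were the 9 genes of P-TEFb control and recruitment (the HEXIM and 7SK proteins and the BET readers), the 16 of pausing and Pol II elongation complexes (NELF, DSIF, FACT and PAF), the 9 other kinases and cyclins of the Pol II tail and the 4 chromatin partners. Their median log2 fold changes were 0.01, 0.03, 0.05 and 0.02, and by limma 2, 1, 2 and 0 of their genes had an unadjusted p under 0.05, as did 30.5% of all genes. In the super elongation complex list 3 of 6 had one, and in the other elongation factors 4 of 9. The 8 cyclin L partners and splicing kinases also had none, with a median of -0.03 and 2 genes at an unadjusted p under 0.05. Between E2 and E2 plus fulvestrant, all 8 of them had estimates below 0 with a median of -0.18 and no call, and all genes had a median of -0.01. Without E2 replicate 2, the library with the low Ccnl1 and Ccnt2 values, the median of the 8 was -0.04 and 7 were below 0, an alternative chosen after seeing the data. Ell3 and Eaf2 were not listed.

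The rapid-response genes are a list of 19 genes of the kind that super elongation complexes serve. With fulvestrant alone 13 of 19 rose and none fell, with a median log2 fold change of 0.60, where 6.76% of all genes were called higher. The list was chosen with earlier results known, and Egr2 and Egr3 had estimates of -0.02 and -0.11. Dusp1, a phosphatase that turns off MAP kinases, had 196, 1586 and 1472 normalized counts with vehicle and 892, 2895 and 3135 with fulvestrant, higher by 1.38 on the log2 scale (standard error 0.27, adjusted p = 0.00713). Fosl1, which encodes the AP-1 subunit FRA1, had 109, 1099 and 1089 with vehicle and 224, 2780 and 2601 with fulvestrant, a log2 fold change of 1.21 (adjusted p = 0.00201). Jun changed by 0.93 (adjusted p = 0.0114) and Atf3 by 1.03 (adjusted p = 0.00865). In all 4 genes fulvestrant exceeded vehicle within each replicate number, while the groups overlapped because replicate 1 was low.

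With E2 plus fulvestrant 14 of the 19 rose, where 7.04% of all genes were called higher. That count was 13 without replicate 1, 8 without replicate 2, 5 without replicate 3 and 0 without the block. The median of the list was 0.60 there as well, and with E2 alone limma called none, with a median of 0.07 and 2 of 19 at an unadjusted p under 0.05. The count with fulvestrant alone was 13 without replicate 1, 6 without replicate 2, 2 without replicate 3 and 0 without the block. Against vehicle, fulvestrant samples thus showed Aff1 higher by 0.52 and Ell by 0.29 on the log2 scale, beside a median of 0.60 in the rapid-response genes. Whether these changes are connected was not tested.

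**Figure D5:**
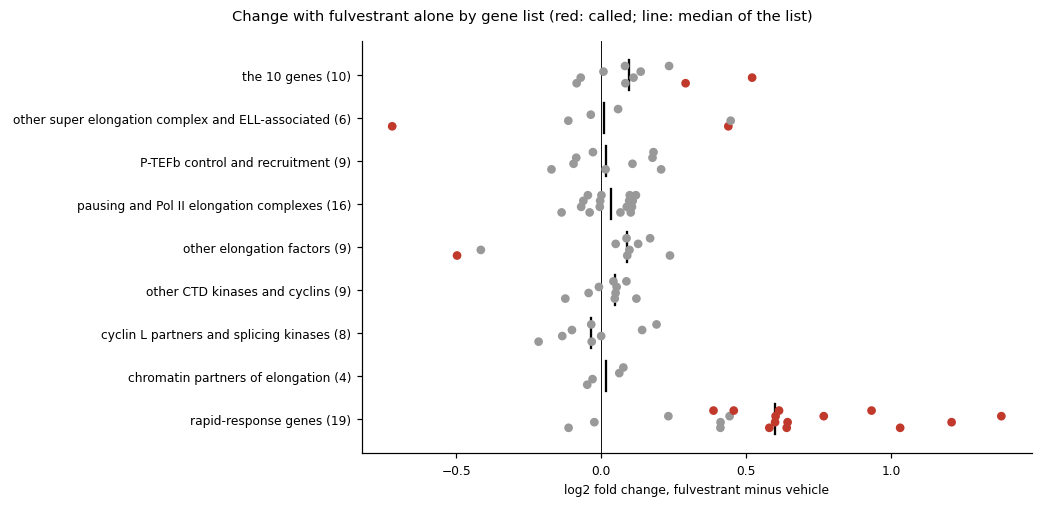
Log2 fold change with fulvestrant alone against vehicle (x axis) of each gene in the 10 genes and in the other lists (y axis, number of genes in brackets), red for called genes and a line at the median of each list. The medians of the 10 genes and of the other lists lie between -0.03 and 0.10, apart from that of the rapid-response genes, which is 0.60.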

How the data were processed

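Normalized counts of 12 RNA-Seq samples were used, and groups and replicate numbers came from the sample labels. Trimming was by Trimmomatic 0.39, and after SortMeRNA had taken out ribosomal RNA, the authors mapped reads to mm10 by STAR 2.5.2. HTSeq 0.13.5 gave strand-aware gene counts, of which those below 10 were dropped, and DESeq2 1.37 scaled the rest by median of ratios. The deposited values are a signal, namely whole reads divided by 1 factor per sample (100% whole at a tolerance of 0.01). The authors' methods name batch adjustment by ComBat_seq and removeBatchEffect, but the values still separate by replicate number. The replicate number came from the labels, and samples of the same number shared their deviations from the group mean (correlation across genes 0.631 to 0.923 over 18 pairs, against -0.862 to 0.792 over 36 other pairs), so it was kept as a block.

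From these values, log2(value + 1) of all 12 samples was fitted with limma 3.58.1 in R 4.3.3 with group, replicate block and a variance trend, and p-values were adjusted over 13233 genes. On this scale the changes of low genes are understated. Samples left out were refitted with the spread pooled over all remaining samples, so a group left with 2 samples was assumed to vary like the others. The fit was tested on simulated data. Positions and exon lengths came from GENCODE M21 (GRCm38), and symbols were found for 13149 genes. Promoter windows were taken from RefSeq on GRCm38.p6. The scripts used Python 3.11.15 with pandas 2.3.3, numpy 2.4.6 and matplotlib 3.10.9. The genes and lists were chosen with earlier results of these data known. From each other list, the text names genes called with fulvestrant alone or between E2 and E2 plus fulvestrant, or the 4 with the largest change with fulvestrant alone where more than 4 were called. Alternatives were the block, 2 groups only, pseudocounts of 10 and 0.1, a mean of at least 100, no variance trend, quantile normalization, CPM, no fold limit, and each replicate or replicate number left out in turn. A further list of cell type markers is not reported here.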

Additional observations from a re-analysis of the deposited data

How the results depend on the processing

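Without the replicate block, limma called 40 genes higher and 32 lower with fulvestrant, 32 higher and 28 lower with E2 plus fulvestrant, 1 higher with E2, and 38 higher and 31 lower between E2 and E2 plus fulvestrant. It then called 0 of the 10 genes with fulvestrant and 0 with E2 plus fulvestrant. Fitting only 2 groups with the block gave 362 higher and 330 lower with fulvestrant, with 1 of the 10 genes higher, and 43 higher and 14 lower with E2. CPM left 1 of the 10 genes higher with fulvestrant, and without the variance trend 3 genes were higher with E2. Leaving out replicates, the numbers higher and lower ranged from 215 to 1331 and from 184 to 981 with fulvestrant. They ranged from 299 to 1057 and from 242 to 864 with E2 plus fulvestrant, and from 0 to 51 and from 0 to 8 with E2. Between E2 and E2 plus fulvestrant they ranged from 164 to 743 and from 138 to 893. Lower genes when E2 was added to fulvestrant ranged from 0 to 4, and higher genes in the interaction from 0 to 11. Of the 10 genes, 0 to 2 were higher with fulvestrant and 1 to 3 with E2 plus fulvestrant. The causes were not tested, and leaving out replicates also reduces the samples. The rapid-response, Eaf1, Zc3h8 and Tcea3 alternatives were chosen after seeing the data. Of 1574 single-gene values under alternatives, 118 had another sign than reported, none of them called in either fit. The planned edgeR and DESeq2 tests on the reads that can be recovered from the values were not run. The lowest value of the 10 genes was 825 normalized counts, far above the removal limit of 10 counts.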
